A study of Mus musculus with 10 samples.

Results

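The genes of 6 transcription factors of mouse embryonic stem cells, Pou5f1, Sox2, Nanog, Klf4, Esrrb and Zfp42, were followed in maps of H3K4me3 and H3K27me3. They were chosen by position: all enriched intervals (islands) that overlapped a fixed mm9 window around each gene by 1 bp or more were taken. The windows were chr17:35635000-35655000 for Pou5f1, chr3:34535000-34565000 for Sox2, chr6:122645000-122675000 for Nanog, chr4:55530000-55555000 for Klf4, chr12:87690000-87870000 for Esrrb and chr8:44375000-44400000 for Zfp42. They held 36 of the 84243 islands in the 4 lists: 11 of 40978 H3K4me3 islands in KO cells, 18 of 28365 in WT cells, 3 of 6833 H3K27me3 islands in KO cells and 4 of 8067 in WT cells. The cells were of strain 129/C57BL/6 and grew with LIF on feeders of embryonic fibroblasts. KO cells, labelled BAF250a Knockout, received 1 µM 4-hydroxytamoxifen for 36 hours, beginning 4 hours after passage. WT cells received ethanol instead, so genotype and tamoxifen cannot be told apart. BAF250a, encoded by Arid1a, is a DNA-binding subunit of the BAF (SWI/SNF) remodelling complex. How tamoxifen leads to the deletion, and whether the cells are 1 clone, is not stated by the labels, and the deletion itself was not checked. The series has 10 samples. The 4 ChIP libraries, 1 per genotype and mark, were used, so no difference below could be set against a spread between replicates and no p-value between genotypes was computed.

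Pou5f1 encodes Oct4, a POU-domain factor without which the pluripotent lineage of the embryo is not kept, and Sox2 encodes its HMG-box partner, which binds DNA next to it. Nanog encodes a homeodomain protein that sustains self-renewal. Klf4, a zinc-finger protein, and Esrrb, an orphan nuclear receptor, belong to the naive pluripotency network around them, and Zfp42 (Rex1), also a zinc-finger protein, is a widely used marker of undifferentiated cells. H3K4me3 marks active promoters and spreads over several kilobases at highly expressed identity genes. H3K27me3, laid down by Polycomb repressive complex 2, marks silent developmental genes, and both together are called bivalent. Expression was not measured here.

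Promoter sequences from RefSeq (GRCm38.p6, 250 bases before to 50 after a transcript start) were found for all 6 genes. They are shown because the factors of this group are known to bind one another's regulatory DNA. The letters TTTGCAT, read on both strands (ATGCAAA), are most of the octamer that POU factors bind. They stood in the promoters of Sox2, Nanog and Zfp42, and 4.63% of all 32851 promoters in the table held them. That share counts promoters, and a gene can have more than 1. These 3 are printed 5′ to 3′ on the gene's strand with the match in capitals, which begins at −99 in Sox2, −75 in Nanog and −185 in Zfp42 relative to the start. The promoter of another Nanog start overlaps the printed one and holds the same match, at −151 from that start.
Sox2 (chr3:34649745-34650044, plus strand): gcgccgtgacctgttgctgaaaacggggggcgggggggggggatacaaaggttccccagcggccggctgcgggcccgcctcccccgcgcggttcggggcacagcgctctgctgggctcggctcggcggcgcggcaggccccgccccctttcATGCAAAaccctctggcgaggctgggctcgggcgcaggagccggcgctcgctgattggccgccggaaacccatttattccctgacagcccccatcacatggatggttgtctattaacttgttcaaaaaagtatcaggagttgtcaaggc
Nanog (chr6:122707239-122707538, plus strand): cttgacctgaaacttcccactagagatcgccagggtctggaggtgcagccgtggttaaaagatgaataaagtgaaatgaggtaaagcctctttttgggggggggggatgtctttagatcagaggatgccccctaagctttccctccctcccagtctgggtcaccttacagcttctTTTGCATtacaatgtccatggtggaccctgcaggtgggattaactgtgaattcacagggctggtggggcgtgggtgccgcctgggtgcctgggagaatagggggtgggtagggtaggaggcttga
Zfp42 (chr8:43306960-43307259, minus strand): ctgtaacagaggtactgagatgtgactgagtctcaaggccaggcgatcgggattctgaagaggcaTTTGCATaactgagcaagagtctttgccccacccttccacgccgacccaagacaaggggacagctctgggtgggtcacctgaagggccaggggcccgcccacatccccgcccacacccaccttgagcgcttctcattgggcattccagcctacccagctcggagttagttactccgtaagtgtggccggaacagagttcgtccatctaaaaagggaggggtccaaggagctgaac

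The promoters of Pou5f1, Klf4 and Esrrb did not hold these letters in this window at any start in the table. CpG content varied widely within the group. The ratio of observed to expected CG dinucleotides was 0.974 in Klf4 and 0.819 in Sox2, against 0.441 in Zfp42, 0.374 at the first Pou5f1 start, 0.266 at the first Esrrb start and 0.192 at the first Nanog start, with a median of 0.384 over all promoters. Klf4 held 40 CG dinucleotides, shown in capitals, and Nanog held 4.
Klf4 (chr4:55532426-55532725, minus strand): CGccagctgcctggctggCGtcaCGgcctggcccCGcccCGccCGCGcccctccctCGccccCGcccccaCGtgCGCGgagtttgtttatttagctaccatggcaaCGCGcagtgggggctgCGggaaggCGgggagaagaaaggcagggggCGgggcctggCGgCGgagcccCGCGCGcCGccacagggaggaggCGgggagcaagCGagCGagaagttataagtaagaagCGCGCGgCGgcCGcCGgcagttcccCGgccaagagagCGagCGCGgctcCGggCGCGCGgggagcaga
The islands are in mm9 and these start sites in GRCm38.p6. No position was carried from one build to the other, so islands were not placed against start sites.

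Depth was read from the islands alone. H3K4me3 islands held 13512350 ChIP reads in KO and 9565481 in WT, and H3K27me3 islands 839422 in KO and 1140878 in WT. Levels are given as fold over input, which is ChIP reads over input reads after correction for their depths, and as reads per kb of island. Intervals are 95% and, unless stated otherwise, cover read counting error only. In a mixed population, fewer marked cells and less mark per cell cannot be told apart, and feeder chromatin was not separated.

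Each of the 6 windows held H3K4me3 islands in both genotypes. In every window the KO library had a higher fold over input, a longer called length and more reads per kb, not scaled for depth, than the WT library. The H3K4me3 islands overlapping the 6 windows summed to 171 kb in KO against 133 kb in WT, with 23209 and 13982 reads. These sums count whole islands, including parts outside a window. Inside the windows, the islands covered 50.8% of 310 kb in KO and 40.0% in WT. The fold over input, pooled over the windows, was 7.80 in KO and 4.06 in WT. The KO over WT fold ratio ran from 1.80 at Esrrb to 2.20 at Klf4, and the counting interval lay above 1 in all 6. A higher fold in KO was common to the whole list, as 91.4% of 23315 shared regions (WT and KO islands merged, with at least 20 reads from each genotype) had one. The windows' islands formed 9 such regions, and the KO fold was 1.5 times the WT fold or more in 9 of 9, against 57.0% of all shared regions. Called length was longer in KO in 8 of 9, against 71.8% of all shared regions, whose median KO over WT length ratio was 1.20. Among shared regions where both libraries reached 500 reads, the length ratio of the leading region exceeded 50.3% at Sox2, 66.6% at Nanog, 67.7% at Esrrb, 81.6% at Zfp42, 82.1% at Klf4 and 89.4% at Pou5f1.

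**Figure D1:**
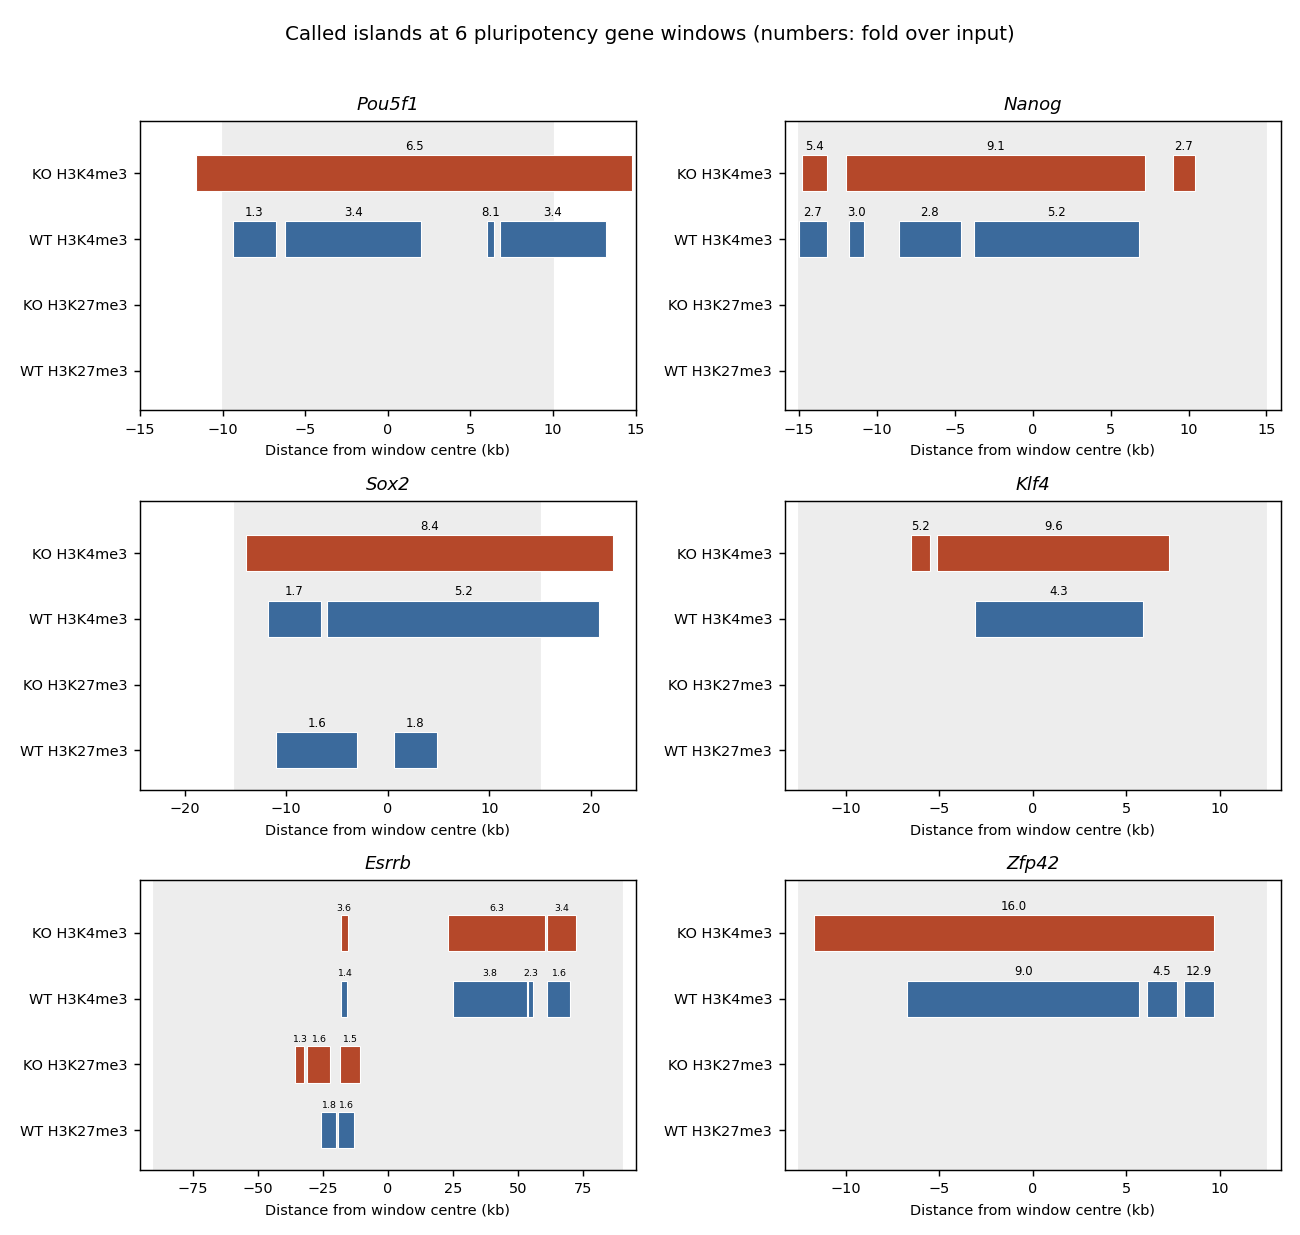
Islands at each gene, drawn to scale as distance from the window centre in kb (horizontal axis; grey, the window), with KO above WT for each mark and the fold over input printed above each island. One KO H3K4me3 island lies where 4 WT islands lie at Pou5f1, 3 at Zfp42 and 2 at Sox2, and H3K27me3 appears at Sox2 in WT alone and at Esrrb in both genotypes.

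At Pou5f1, 1 KO island of 26.4 kb (chr17:35633401-35659800) held 3590 ChIP and 409 input reads, and covered the whole window. In WT, 4 islands of 2.6, 8.2, 0.4 and 6.4 kb held 66, 1411, 29 and 587 reads. The fold over input was 6.52 (5.89 to 7.23) in KO and 3.29 (2.94 to 3.68) in WT, a log2 ratio of 0.99 (0.77 to 1.21). The strongest WT island, chr17:35638801-35647000, had a higher read density than the KO island, at 136 reads per kb in KO and 172 in WT. The KO value is an average over 26.4 kb, and the WT value one over 8.2 kb. Input reads per kb were 15.5 in KO and 20.3 in WT, the widest difference of the 6 windows, at 0.762 times as many in KO. The smallest WT island rested on 2 input reads, and its fold of 8.15 had an interval of 1.94 to 34.2. By gene order in GRCm38.p6 the next coding genes are H2-Q10 and Tcf19, and an island of this length may reach beyond Pou5f1.

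The Sox2 window held the islands with most reads. In KO a single island of 36.2 kb (chr3:34536001-34572200) held 5495 reads, and in WT islands of 5.2 and 26.8 kb held 266 and 3430. The folds were 8.37 (7.63 to 9.18) in KO and 4.54 (4.12 to 5.00) in WT, a log2 ratio of 0.88 (0.69 to 1.08). The KO island exceeded 99.95% of the KO list in reads and 99.90% in width, and the longer WT island exceeded 99.93% of the WT list in reads and 99.94% in width. H3K4me3 was already broad here in WT cells, and called length was 1.13 times as long in KO, the smallest extension of the 6. The smaller WT island, on the low-coordinate side, had a fold of 1.72 and lay within the KO island.

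At Nanog, 3 KO islands held 87, 3114 and 40 reads, and 4 WT islands held 52, 48, 311 and 1561. The main KO island, chr6:122648001-122667200, was 19.2 kb wide with a fold of 9.11 (8.02 to 10.4) and spanned 3 WT islands, of which the main one, chr6:122656201-122666800, was 10.6 kb wide with a fold of 5.22 (4.45 to 6.12). The edge of the main island was 8.2 kb farther out in KO on the low-coordinate side, against 0.4 kb on the other side. The low-side stretch already held WT islands of 1 and 4 kb. Over this region islands summed to 19200 bp in KO and 15600 bp in WT. Over the window the fold was 8.69 (7.69 to 9.83) in KO and 4.42 (3.87 to 5.04) in WT, a log2 ratio of 0.98 (0.72 to 1.24). The third KO island, chr6:122669001-122670400, had no WT partner and was weak, with 40 ChIP and 11 input reads. The neighbouring coding genes by order are Dppa3 and Slc2a3.

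The Klf4 window had the largest KO over WT ratio, though its interval overlapped those of all the other windows, and the simplest pattern. In KO the islands were chr4:55536001-55537000, with 35 reads, and chr4:55537401-55549800, with 1942 reads over 12.4 kb. In WT there was 1 island, chr4:55539401-55548400, with 987 reads over 9.0 kb. The fold was 9.48 (8.05 to 11.2) in KO and 4.30 (3.58 to 5.17) in WT, a log2 ratio of 1.14 (0.79 to 1.49). The main island reached 2.0 kb farther out on the low side and 1.4 kb on the high side in KO. Its density was 157 reads per kb in KO and 110 in WT. Input per kb was 0.807 times as high in KO.

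At Esrrb, whose window is the longest, H3K4me3 lay in a small island in the lower part of the window and a long block in the upper part. The block was chr12:87803201-87840600 in KO, with 4529 reads over 37.4 kb, the widest KO island of the 6 windows. Its WT counterpart was chr12:87805201-87833600, with 2875 reads over 28.4 kb, followed by an island of 1.8 kb with 61 reads. An island directly above it held 679 reads at a fold of 3.43 (2.87 to 4.10) in KO and 378 reads at 1.65 (1.35 to 2.01) in WT. The small lower island held 191 reads at a fold of 3.64 (2.58 to 5.14) in KO and 125 reads at 1.43 (1.03 to 2.00) in WT. That region had the highest fold ratio of the 9, with a log2 value of 1.34 (0.66 to 2.03), and the long block the lowest, at 0.77 (0.57 to 0.96), but these intervals overlap. Over the window the fold was 5.57 (5.16 to 6.02) in KO and 3.10 (2.85 to 3.38) in WT, a log2 ratio of 0.84 (0.68 to 1.01).

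Zfp42 carried the strongest H3K4me3 by fold in both genotypes. One KO island of 21.4 kb (chr8:44375801-44397200) held 3507 reads, and WT islands of 12.4, 1.6 and 1.6 kb held 1623, 80 and 92. The fold was 16.0 (13.7 to 18.7) in KO and 8.77 (7.27 to 10.6) in WT, a log2 ratio of 0.87 (0.51 to 1.22). The KO island exceeded 99.1% of the KO list in fold, and the main WT island 94.8% of the WT list. Input was low here in both libraries, at 7.62 reads per kb in KO and 7.37 in WT, against 11.6 to 15.5 in KO and 14.3 to 20.3 in WT at the other 5 genes. Read density, which does not use the input, set Zfp42 less far apart in KO, at 164 reads per kb against 105 to 152 at the other genes. In WT it did not set Zfp42 apart, at 115 reads per kb against 83.1 to 119.

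**Figure D2:**
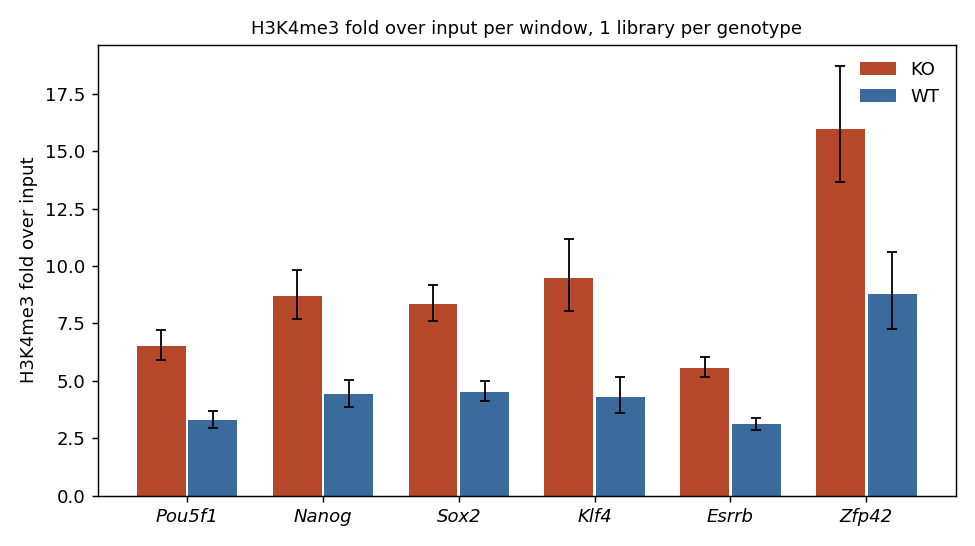
H3K4me3 fold over input (vertical axis, no unit) of all islands of a window, KO bar left of WT bar, with 95% counting intervals and 1 library per bar. The intervals of KO and WT do not overlap at any of the 6 genes, and Zfp42 is highest in both, at 16.0 and 8.77.

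Ordered by fold, Zfp42 stood above the rest in both genotypes. Klf4, Nanog and Sox2 followed at 9.48, 8.69 and 8.37 in KO and at 4.30, 4.42 and 4.54 in WT, with overlapping intervals in each genotype, so their order among themselves cannot be given. Pou5f1 and Esrrb were lowest, at 6.52 and 5.57 in KO and 3.29 and 3.10 in WT, and their intervals also overlapped in each genotype. In WT the interval of Pou5f1 overlapped that of Klf4 too.

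KO H3K4me3 islands at these genes often bridged gaps between WT islands. Of the 9 KO islands with a WT partner, 5 spanned 2 or more WT islands, at Pou5f1, Sox2, Nanog, Esrrb and Zfp42, against 11.4% of all 24417 such KO islands. These 5 islands were 19.2 to 37.4 kb wide, against a median of 2 kb over the KO list, and the share was not matched for width. No H3K4me3 island of WT was missing from KO (0 of 18, against 5.34% of the WT list). The KO islands without a WT partner were the small ones at Nanog and Klf4 (2 of 11, against 40.4% of the KO list).

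**Figure D3:**
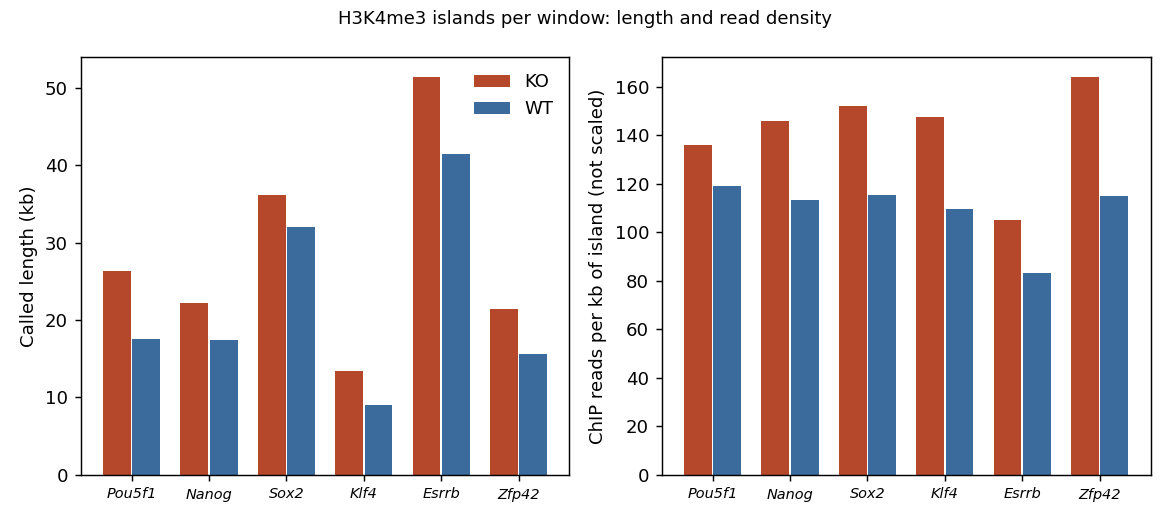
Length of called H3K4me3 island in kb (left) and ChIP reads per kb of island, not scaled for depth (right), per window, KO bar left of WT bar, 1 library each. Called length is 13.4 to 51.4 kb in KO and 9.0 to 41.4 kb in WT, and both measures are higher in KO at each gene.

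The size of the difference depended on the scale. With reads divided by their total over all shared H3K4me3 regions, which removes any change common to them, KO over WT log2 ratios were 0.61 (0.50 to 0.72) at Klf4, 0.57 (0.49 to 0.65) at Zfp42, 0.38 (0.31 to 0.46) at Pou5f1, 0.32 (0.24 to 0.40) at Nanog, 0.26 (0.19 to 0.32) at Esrrb and 0.18 (0.12 to 0.24) at Sox2. All 6 were above the median of all shared regions, 0.04. None of the 9 member regions reached 1.5 times by this measure, against 16.1% of all shared regions. Among shared regions where both libraries reached 500 reads, only 1.42% did. The Klf4 window reached 1.52 times, with its KO island that has no WT partner counted in. Per kb of called island, the same scaled values were near 0, at 0.12 at Zfp42, 0.033 at Klf4, −0.00048 at Sox2, −0.029 at Nanog, −0.056 at Esrrb and −0.20 at Pou5f1, against a median of −0.23 over all shared regions. By this last measure 2 of 6 windows were higher in KO, whereas fold over input and reads per kb not scaled for depth were higher in KO in 6 of 6, so the direction depends on the scale.

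Regions with many reads had a lower median fold ratio than the whole list, whose median was 0.66 on the log2 scale. The members were therefore also set beside the 6993 shared regions in which each library had 500 or more reads, whose median log2 fold ratio was 0.58. The leading region of each gene had a fold ratio above 96.8% of these at Klf4, 92.3% at Nanog, 90.5% at Pou5f1, 84.1% at Sox2, 82.6% at Zfp42 and 72.5% at Esrrb. For scaled reads the shares ran from 87.3% at Sox2 to 98.5% at Klf4. For scaled reads per kb they ran from 63.4% at Pou5f1 to 96.6% at Klf4. Ranked by fold itself within that set, the Klf4 region exceeded 70.0% in KO and 27.3% in WT, and the Nanog region 64.5% in KO and 31.4% in WT. Pou5f1 exceeded 26.1% in KO and 9.55% in WT. The remaining genes also ranked higher in KO, at 54.5% against 32.3% for Sox2, 22.7% against 16.2% for Esrrb, and 97.7% against 88.8% for Zfp42. These ranks describe 1 library of each genotype.

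**Figure D4:**
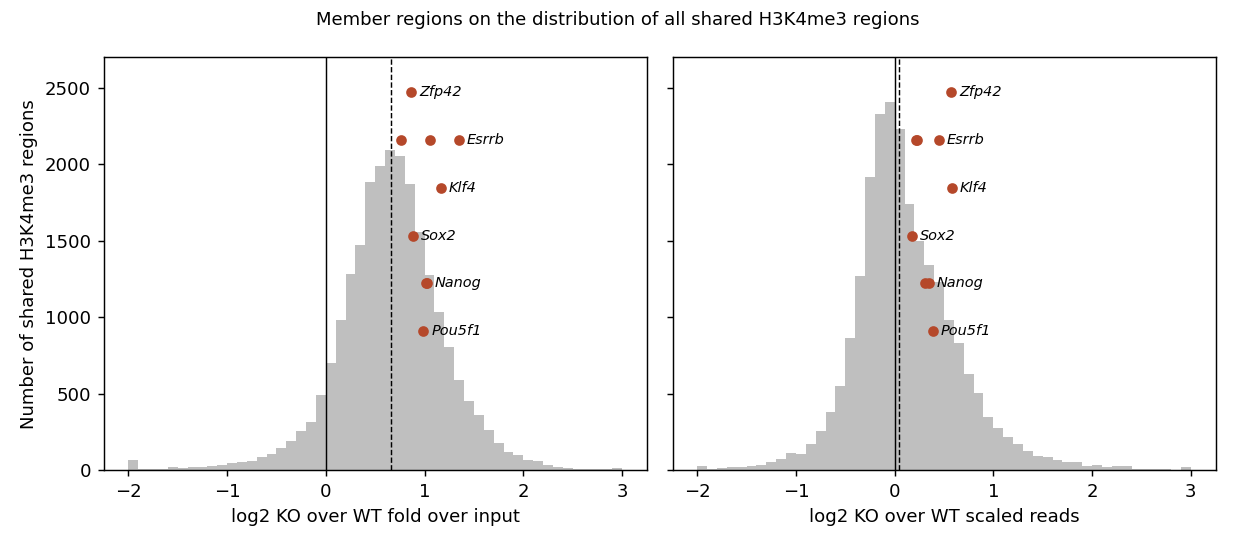
Grey bars count all 23315 shared H3K4me3 regions by log2 KO over WT fold over input (left) or log2 KO over WT scaled reads (right), with values past the ends in the outermost bars, a solid line at 0 and a dashed line at the median. Points are the 9 member regions, in 1 row per gene with no meaning in their height, and all 9 lie to the right of the dashed median in both panels.

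H3K27me3 islands lay in 1 of the 6 windows in KO and in 2 in WT. They covered 6.32% of the 310 kb of windows in KO and 7.81% in WT, against 1.37% in KO and 1.34% in WT of all chromosomes, each measured to its last island. All of this lay at Esrrb in KO, and at Esrrb and Sox2 in WT. The windows were set around genes, so whole chromosomes are not a matched background. No island of either genotype lay in the windows of Pou5f1, Nanog, Klf4 or Zfp42. The nearest islands outside them were 34.2 kb away in KO and 25 kb in WT at Pou5f1, 270 kb in KO and 93.2 kb in WT at Nanog, 263 kb in KO and 105 kb in WT at Klf4, and 362 kb in KO and 1618 kb in WT at Zfp42. A window without an island has no read count, and the fewest reads of any island were 22 in the KO list and 19 in the WT list, so a lower level cannot be seen here.

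At Sox2, no H3K27me3 island was called in KO, where the nearest lay 550 kb above the window. In WT there were 2: chr3:34539001-34547000, with 281 ChIP and 102 input reads, and chr3:34550601-34554800, with 125 and 42. Both were weak, with folds of 1.64 (1.31 to 2.06) and 1.77 (1.25 to 2.52), higher than 17.3% and 22.2% of the WT list. Both overlapped WT H3K4me3, the first by 4.4 and 3.0 kb of the neighbouring H3K4me3 islands and the second over its whole 4.2 kb, so part of the Sox2 window was bivalent by position in WT. In KO, H3K4me3 spanned the same places with no H3K27me3 call. The lack of a KO partner is common for this mark: 50.4% of the 8067 WT islands had none, and 23.4% (exact 95% interval 20.9 to 26.0%) of the 1073 with 100 or more reads and a fold under 2. That interval is binomial over islands, treats them as independent, and covers no spread between libraries. The set includes both Sox2 islands. KO islands within 200 bp of the same widths held 105 to 263 reads near 8.0 kb (136 islands, median 159). Near 4.2 kb they held 53 to 325 reads (876 islands, median 74). These counts are not scaled for depth and come from other places, so they set no limit of detection at Sox2.

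At Esrrb, H3K27me3 lay in the lower part of the window in both genotypes, away from the long H3K4me3 block. KO had 3 islands, of 3.4, 8.6 and 7.6 kb, with 64, 161 and 163 reads and folds of 1.30, 1.62 and 1.53. WT had 2, of 5.8 and 6.2 kb, with 153 and 243 reads and folds of 1.82 and 1.65. Summed, the fold was 1.52 (1.29 to 1.78) in KO and 1.71 (1.41 to 2.08) in WT, a log2 ratio of −0.17 (−0.53 to 0.19), which does not separate the libraries, and close to the median of all 3379 shared H3K27me3 regions, −0.18. Scaled reads gave 0.42 (0.22 to 0.62), over 1.63 times the called length and with a KO island that has no WT partner counted in, and scaled reads per kb gave −0.29. The 2 regions shared by both genotypes had scaled read ratios of opposite sign, 0.52 and −0.13, so no direction can be given here. The lowest-lying KO island, chr12:87744401-87747800, had no WT partner (1 of 3, against 41.5% of the KO list), and its fold interval of 0.893 to 1.89 spanned 1. The small H3K4me3 island of the window lay wholly inside an H3K27me3 island in both genotypes, over 2.8 kb in KO and 2.4 kb in WT.

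Counted over the group, 1 of 11 KO H3K4me3 islands overlapped H3K27me3, against 6.78% of the KO list, and 3 of 18 WT islands did, against 10.8% of the WT list. The islands behind these counts were the small Esrrb island in KO, and in WT the same place and both Sox2 islands.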

How the data were processed

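The 4 deposited lists hold 1 ChIP library each. Per the submitters' processing notes, reads were aligned with Bowtie to mm9 and islands called with SICER 1.1. Their settings were 200 bp windows, an FDR of 0.05, and gaps of 200 bp (H3K4me3) or 600 bp (H3K27me3). How reads were filtered is not stated. The deposited counts are ChIP and input reads per island, not scaled. The deposited fold ratio equals ChIP over input reads times 1 constant per list, within 1% for 100% of islands, and the deposited p-values and adjusted p-values are SICER's own.

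Starts and ends were raised by 1 to give 1-based positions. Reads of whole islands, including parts outside the window, were summed per window. The fold of a window was recomputed with the list's constant. Ratio intervals are normal on the log scale from the 4 read counts. Overlapping KO and WT islands were joined into regions for the whole-list comparisons. All islands of the 6 genes are reported. Genes and windows were chosen with earlier results of these data known. A wider set of pluripotency genes was not analysed here, because gene positions in mm9 were not at hand. The octamer search was added after the data were seen. The KO over WT fold ratio of shared H3K4me3 regions was tested on simulated reads, and the octamer search was not. Python 3.11.15, numpy 2.4.6, pandas 2.3.3, scipy 1.17.1 and matplotlib 3.10.9 were used.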

Additional observations from a re-analysis of the deposited data

How the results depend on the processing

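All settings were planned. Of 60 alternatives, 38 left a value within its interval or a count within 1.5 times, 18 moved it and 4 turned its sign. Those 4 were log2 KO over WT reads per kb, scaled to shared regions, in place of fold over input: −0.20 at Pou5f1, −0.029 at Nanog, −0.00048 at Sox2 and −0.056 at Esrrb. The same measure gave 0.033 at Klf4 and 0.12 at Zfp42. By construction this measure is the log2 fold ratio less a constant of 0.80, from the depth and shared-region scalings, plus the log2 KO over WT ratio of input reads per kb, which ran from −0.39 at Pou5f1 to 0.047 at Zfp42. Scaled reads gave 0.38 at Pou5f1, 0.32 at Nanog, 0.18 at Sox2, 0.61 at Klf4 and 0.26 at Esrrb, and scaling to a median ratio of 1 gave 0.34, 0.28, 0.13, 0.56 and 0.21 at the same genes. With the island of most reads alone Sox2 was 0.69, and with a fold of 2 or more required Sox2 was 0.69 and Esrrb 0.59, since weak WT islands dropped out. Widening windows by 10 kb gave 18 H3K4me3 islands in KO. Requiring a fold of 2 left 0 H3K27me3 islands in KO and 0 in WT. With 1 library per genotype and mark, leaving out a replicate was not possible. Depth limits precision as the counting intervals show, and library totals are not stated in the lists.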
